A study of Mus musculus with 7 samples.

Results

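The 10 genes Star, Cyp19a1, Hsd17b1, Hsd3b1, Cyp17a1, Fdx1, Fdxr, Por, Hsd17b7 and Srd5a1, chosen by name from 21755 protein-coding genes of the mouse autosomes and chromosome X, encode the steroidogenic enzymes and cofactors that act around the side-chain cleavage enzyme Cyp11a1. Binding of ERβ (estrogen receptor beta, the product of Esr2) was examined in the body of each gene plus 50 kb on each side, and 12 ERβ sites of 4869 in the genome lay in these loci. The data were chromatin immunoprecipitation and sequencing (ChIP-seq) of whole ovaries of C57BL/6J mice with functional ERβ, with 3 ERβ ChIP libraries and 2 libraries of input, which is sheared chromatin sequenced without the antibody step. The ovaries of several young to adult mice were pooled for each ChIP replicate, so the chromatin came from mixed follicle stages and from granulosa, theca, luteal and stromal cells. In the paper, ERβ staining was strong in granulosa cells and not seen inside the theca layer. The cell type behind each site was not tested. The 2 ChIP samples of ERβ knockout ovaries, in which exon deletion removes the receptor, were not analysed here.

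Ovarian steroid synthesis starts when Star moves cholesterol into mitochondria, where Fdxr and Fdx1 pass electrons to Cyp11a1. Hsd3b1 then makes progesterone, Cyp17a1 in theca cells opens the way to androgens, and Cyp19a1 (aromatase) and Hsd17b1 in granulosa cells turn androgens into estradiol. ERβ is the main estrogen receptor of granulosa cells and binds an estrogen response element (ERE), an inverted repeat of a short half-site.

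A site was a run of 200-bp windows in which at least 2 of the 3 ChIP libraries exceeded 4 times the mean input. An input below the genome mean of 0.368 signal units was raised to that mean. By this rule 7 of the 10 genes had at least 1 site, against 27.5% of all protein-coding genes, and Star, Por and Srd5a1 had none. The loci had a median length of 115 kb against 117 kb for all protein-coding genes. Over their 1.28 Mb the density was 9.38 sites per Mb, whereas the mean was 2.76 over all protein-coding loci and 1.90 over the genome. Hsd3b1, Cyp19a1, Hsd17b1 and Fdxr had 2 or more sites each (4 of 10), against 8.64% of protein-coding genes. The sites were selected for this contrast, so their counts and folds are descriptions and carry no test. The genes were also chosen with earlier results of these data known, so these shares do not describe steroidogenic genes in general. Among 34 other genes of steroid synthesis, transport and breakdown, 32.4% had a site.

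The strongest site of each of 6 genes is shown first, in the letters of the GRCm38 (mm10) reference plus strand, since these sequences carried the highest signal. Capitals mark an ERE (GGTCANNNTGACC, of whose 10 fixed bases up to 2 may differ) or a lone half-site GGTCA. They also mark NR5A motifs, spelled TCAAGGTCA or CCAAGGTCA. GATA motifs are spelled AGATAA in one form and in the other form TGATAA. AP-1 motifs are spelled TGACTCA in one form and in the other form TGAGTCA, and all were read on both strands.

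Hsd3b1, chr3:98890551-98890750: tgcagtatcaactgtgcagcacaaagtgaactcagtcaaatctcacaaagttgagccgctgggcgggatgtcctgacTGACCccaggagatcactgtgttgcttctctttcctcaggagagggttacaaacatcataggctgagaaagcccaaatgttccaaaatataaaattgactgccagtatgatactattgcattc
Fdx1, chr9:52003601-52003800: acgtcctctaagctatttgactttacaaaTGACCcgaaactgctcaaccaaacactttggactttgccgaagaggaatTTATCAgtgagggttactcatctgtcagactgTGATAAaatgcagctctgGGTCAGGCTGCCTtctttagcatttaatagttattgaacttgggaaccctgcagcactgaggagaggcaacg
Cyp19a1, chr9:54204601-54204800: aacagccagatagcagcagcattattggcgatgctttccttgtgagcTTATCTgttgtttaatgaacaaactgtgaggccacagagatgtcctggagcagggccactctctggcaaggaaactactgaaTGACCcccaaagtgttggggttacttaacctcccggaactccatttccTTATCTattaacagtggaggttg
Hsd17b1, chr11:101078211-101078410: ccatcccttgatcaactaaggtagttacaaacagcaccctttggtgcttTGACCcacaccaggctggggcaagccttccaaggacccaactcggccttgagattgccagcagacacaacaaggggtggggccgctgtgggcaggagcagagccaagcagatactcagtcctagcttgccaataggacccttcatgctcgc
Fdxr, chr11:115272911-115273110: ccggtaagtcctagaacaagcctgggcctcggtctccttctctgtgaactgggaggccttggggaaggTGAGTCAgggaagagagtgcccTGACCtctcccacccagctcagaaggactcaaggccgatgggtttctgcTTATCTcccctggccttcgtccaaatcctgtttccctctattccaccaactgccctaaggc
Cyp17a1, chr19:46646261-46646460: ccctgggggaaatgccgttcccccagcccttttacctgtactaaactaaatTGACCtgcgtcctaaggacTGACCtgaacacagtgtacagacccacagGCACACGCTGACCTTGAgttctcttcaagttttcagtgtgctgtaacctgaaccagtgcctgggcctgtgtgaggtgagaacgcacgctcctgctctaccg

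Hsd3b1, which encodes the dehydrogenase and isomerase that converts pregnenolone to progesterone, had the highest ERβ signal of the 10 genes. At its strongest site the signal was 16.4, 19.7 and 22.0 in ChIP replicates 1, 2 and 3, and 0.590 and 0.900 in the 2 inputs. All ChIP libraries lay far above both inputs. With Input replicate 1 alone the strongest fold in the locus was 35.5, and with Input replicate 2 alone it was 22.1. The fold over input was 26.0 ± 3.78 (SD, n = 3), which ranked 108 of 4869 sites, and 0.901% of protein-coding genes had a site at least as strong. The site lay 30.9 kb upstream of the Hsd3b1 start, in intron 1 of 8 of Hao2 (a peroxisomal hydroxyacid oxidase), whose own start was only 2.59 kb away. A weaker site in the same intron, chr3:98888301-98888500, lay 28.6 kb upstream of Hsd3b1 and reached 5.0 ± 0.52-fold, with all 3 ChIP libraries over 4-fold. The promoter of Hsd3b1 itself held no site. Its ChIP signal there was 0.445, 0.453 and 0.319, below both inputs (0.576 and 0.539). In the paper, Hao2 RNA was lower in ERβ knockout ovaries. A site in intron 1 of Hao2 was listed there as bound by ERβ and by the nuclear receptor LRH-1. The paralog Hsd3b6, in the same locus, had no site within 50 kb of its own body. Whether the distal site acts on Hsd3b1, Hsd3b6 or Hao2 was not tested.

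**Figure D1:**
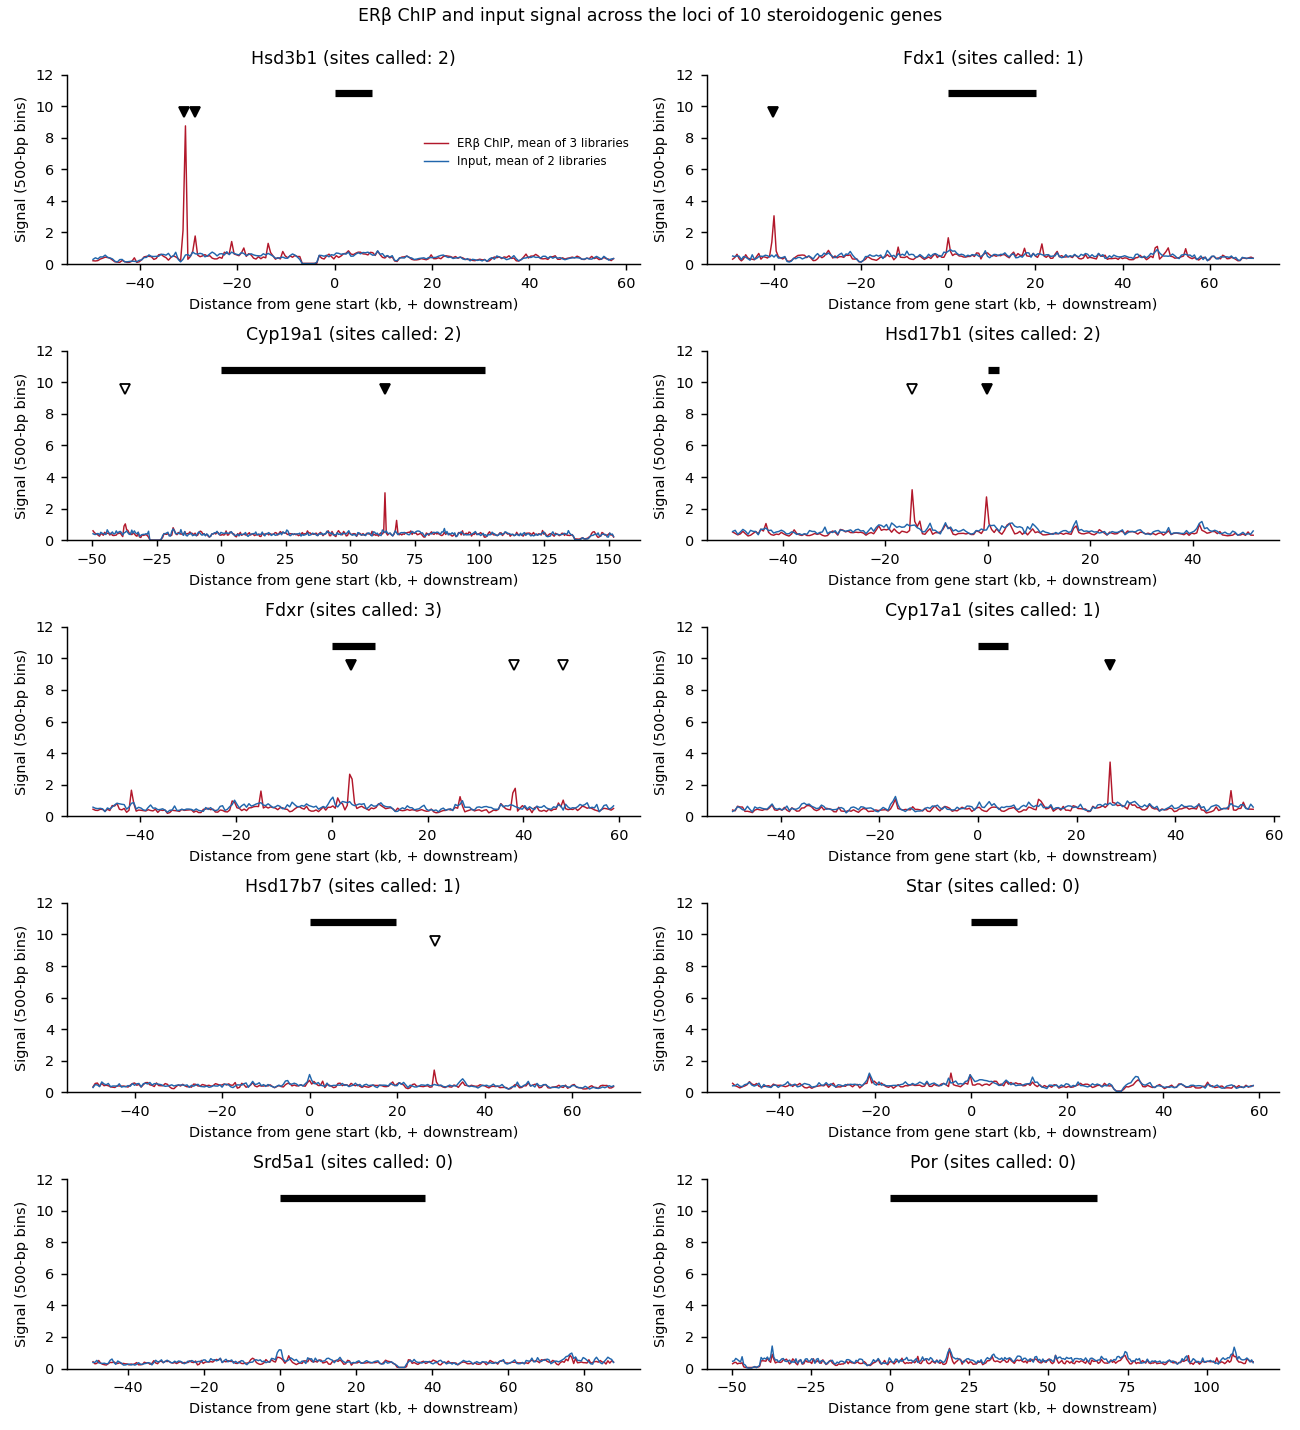
Mean signal in 500-bp bins (vertical axis, signal units) of 3 ERβ ChIP libraries (red) and 2 inputs (blue) against the distance from the gene start in kb, positive values being downstream in the direction of transcription. Black bars are gene bodies, filled triangles sites over 4-fold in 3 ChIP libraries and open triangles sites over 4-fold in 2, and the Hsd3b1 peak stands above all others while Star, Srd5a1 and Por have none.

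The mitochondrial electron carriers Fdx1 (ferredoxin) and Fdxr (ferredoxin reductase) both had ERβ sites. Fdx1 had 1 site, where the signal was 5.22, 6.86 and 5.93 in the ChIP libraries and 0.614 and 0.432 in the inputs. The fold was 11.5 ± 1.58 (SD, n = 3). The site was 40.1 kb upstream of Fdx1, which was still the nearest protein-coding start and the only protein-coding gene of the locus, and 420 bp upstream of the processed pseudogene Gm6981. Fdxr had 3 sites, and the strongest lay within the gene, in intron 2 of 11 and 4.04 kb downstream of its start. The signal there was 5.09, 9.02 and 7.50 against 0.828 and 1.12 in the inputs, a fold of 7.40 ± 2.04. The groups did not overlap, although ChIP replicate 1 was well below the other two. The other 2 Fdxr sites lay in intron 9 of Tmem104, 37.9 and 48.3 kb downstream of the Fdxr start. They reached 4.20 ± 2.01 and 3.68 ± 1.32-fold, and in both of them ChIP replicate 1 was under 4-fold (2.12 and 2.22). The weakest of the 12 sites was the single window chr11:115228671-115228870, where the second-highest of the 3 ChIP folds was 4.02.

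Cyp19a1, the aromatase that makes estrogens from androgens, had 2 sites. The stronger gave 4.51, 6.03 and 4.96 in the ChIP libraries and 0.507 and 0.412 in the inputs, a fold of 11.2 ± 1.69 (SD, n = 3). It lay inside the annotated gene but 11.2 kb upstream of the nearest start of a protein-coding Cyp19a1 transcript, within intron 1 of a longer transcript that is annotated as non-coding and starts 63.4 kb away. The second site was 37.4 kb upstream of the gene in intron 1 of Gldn, with 58.0% of its bases in annotated repeats, and reached 4.39 ± 0.881-fold in 2 libraries over the threshold. Neither protein-coding start window of Cyp19a1 showed ERβ signal above input, the folds being 0.859 and 0.837.

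Hsd17b1, which reduces estrone to estradiol, was the only one of the 10 genes with a site in its promoter, where 0.814% of protein-coding genes have one. The site ended directly before the transcription start, with its centre 100 bp upstream. The signal was 3.63, 5.11 and 6.38 in the ChIP libraries and 0.666 and 0.680 in the inputs, a fold of 7.49 ± 2.04. All ChIP libraries were above both inputs, which were almost equal. A second site was 14.8 kb upstream of Hsd17b1, in an exon of Atp6v0a1 outside the coding sequence, where the fold was 4.42 ± 1.49 and ChIP replicate 1 stayed at 3.14. Hsd17b7, a further estrone reductase that also serves cholesterol synthesis, had 1 intergenic site 28.5 kb downstream of its start, at chr1:169940601-169940800. Its signal was 2.24, 3.09 and 1.60 against 0.522 and 0.490, a fold of 4.56 ± 1.47, with ChIP replicate 3 under the threshold at 3.17.

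Cyp17a1, the hydroxylase and lyase at the entry to androgens, had 1 site, in intron 2 of 3 of Wbp1l and 26.8 kb downstream of the Cyp17a1 start. The signal was 5.56, 7.07 and 4.25 in the ChIP libraries and 0.774 and 0.900 in the inputs, and the fold was 6.72 ± 1.68 (SD, n = 3). The nearest protein-coding start was that of Wbp1l, 23.0 kb away.

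Star, Srd5a1 and Por stayed below the threshold everywhere in their loci. For Star, the cholesterol carrier, the strongest window (chr8:25802241-25802440) lay 4.21 kb upstream of its start, in an exon of the neighbouring Lsm1. The signal was 1.65, 2.24 and 1.77 in the ChIP libraries and 0.677 and 0.380 in the inputs. The ChIP libraries were all above the inputs, but the fold was 3.57 ± 0.592 and only replicate 2 passed 4-fold. The highest second-best fold of any Star window was 3.50, so this was the gene just outside the rule. Against Input replicate 2 alone Star had a site, and its strongest fold was then 5.05, against 2.79 with Input replicate 1 alone. For Srd5a1, a reductase of testosterone, the strongest window gave 0.928, 2.14 and 1.45 against 0.410 and 0.641, and ChIP replicate 1 was much closer to the inputs than replicate 2. For Por, the electron donor of Cyp17a1 and Cyp19a1, it gave 1.20, 1.37 and 0.414 against 0.320 and 0.310, with ChIP replicate 3 near the inputs. Their folds were 2.86 ± 1.16 and 2.71 ± 1.39.

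Ordered by the strongest fold, Hsd3b1 stood apart from Fdx1 by 14.5, more than the larger SD of the pair (3.78). Gaps larger than the spread also separated Cyp19a1 from Hsd17b1 (3.75 against an SD of 2.04) and Cyp17a1 from Hsd17b7 (2.16 against 1.68). Within the sets Fdx1 and Cyp19a1, Hsd17b1, Fdxr and Cyp17a1, and Hsd17b7, Star, Srd5a1 and Por, each gene differed from the next by less than the spread between ChIP libraries. These SDs cover the ChIP libraries only, since all folds share the same mean input. ChIP replicate 1 had the lowest fold at 9 of the 12 sites and at 61.9% of all sites of the genome.

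**Figure D2:**
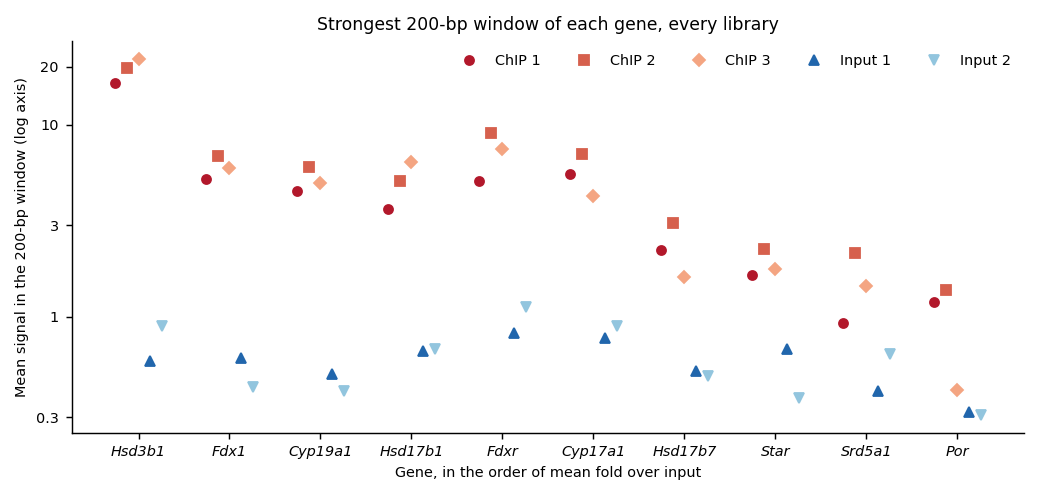
Signal (vertical log axis, signal units) in the strongest 200-bp window of each gene, 1 point per library, for 3 ERβ ChIP libraries (red shades) and 2 inputs (blue shades). ChIP and input points are separated for all 10 genes, widely for Hsd3b1 (16.4 to 22.0 against 0.590 and 0.900) and narrowly for Por (0.414 against 0.320 in the closest pair), each window having been picked for its fold.

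The sites were narrow. The run of windows that passed the rule spanned 640 bp for the strongest Hsd3b1 site, 570 bp for Fdx1, 520 bp for Cyp19a1 and between 420 and 470 bp for the strongest sites of Cyp17a1, Hsd17b1 and Fdxr. Each input called over the other at the same 4-fold threshold gave 248 and 68 sites in the genome and 0 in these loci. That call set a single library over a single input. The site rule asks for at least 2 ChIP libraries over the mean of 2 inputs, so these counts are not its background rate. All 3 ChIP libraries passed 4-fold at 7 of the 12 sites (58.3%), against 65.8% of all sites. The median fold was 5.86 for the 12 sites and 6.22 for all sites.

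**Figure D3:**
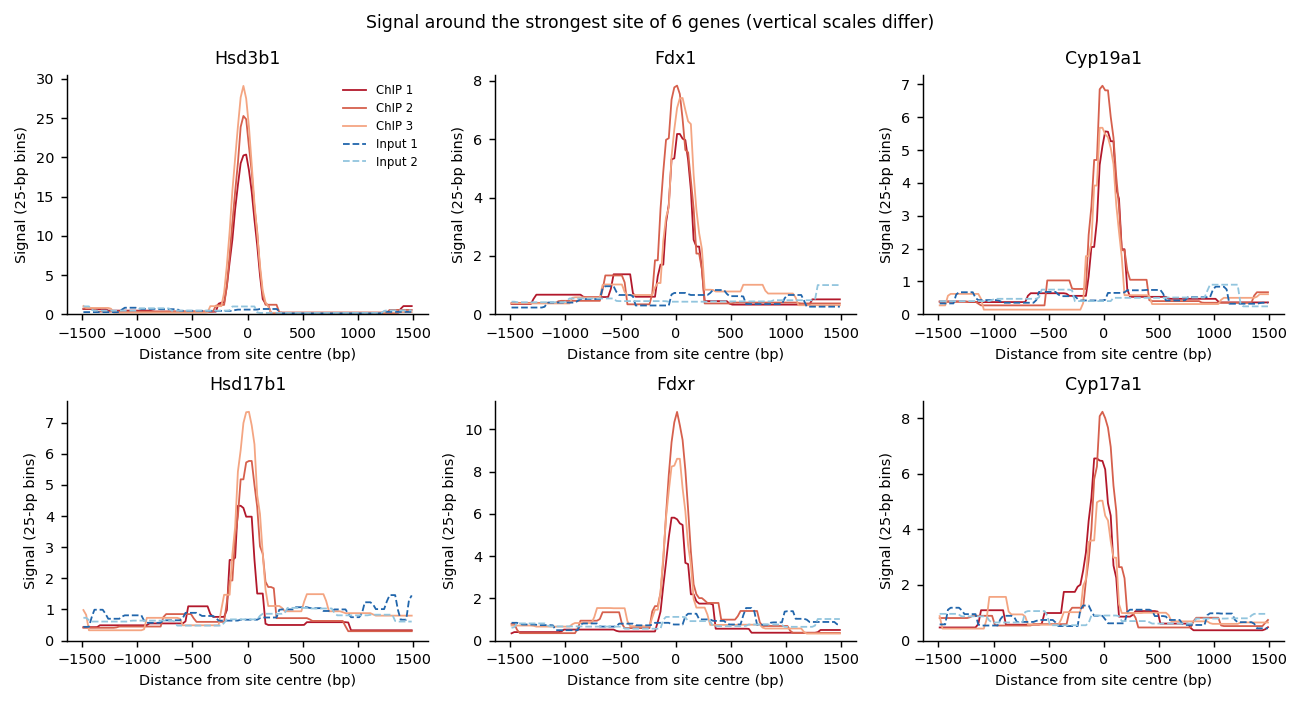
Signal in 25-bp bins (vertical axis, signal units, scales differ) against the distance in bp from the site centre, for the strongest site of 6 genes, with 1 line per library. The 3 ChIP libraries (red shades) peak together at the centre and the 2 inputs (dashed blue) stay near the level of the flanks.

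Each ChIP library was also read at sites that the other two libraries had put over 4-fold, which leaves it out of the choice although the inputs stay in it. In these loci ChIP replicate 1 was over 4-fold at 7 of 11 such sites (74.4% in the genome), replicate 2 at 7 of 7 (93.4%) and replicate 3 at 7 of 8 (87.6%). The median held-out fold, averaged over the 3 libraries, was 7.64 ± 2.12 (SD, n = 3) in the loci and 7.05 ± 1.18 in the genome, a difference smaller than the spread between libraries. Track names came in 2 forms, one for ChIP replicate 1 and Input replicate 1 and one for the remaining libraries, whose meaning is not stated. Compared only within each form, with ChIP replicates 2 and 3 averaged, the strongest site stayed over 4-fold in both forms for all 7 genes with a site. Of the 12 sites, 8 did so. These ratios reuse the values that chose the sites, so the counts are descriptions, and the share over all sites is not given here.

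A limma test of 3 ChIP libraries against 2 inputs was fitted to all 1-kb windows of the genome on log2(signal + 0.5). Of 1263 windows in the loci, 4 were higher in ChIP at an adjusted p under 0.05 (Benjamini-Hochberg), while 0.0957% of all windows were. They held the strongest sites of Hsd3b1, Fdx1, Cyp19a1 and Cyp17a1. Sites were picked for ChIP over input in these same libraries. The differences and p-values of windows with a site therefore repeat that contrast and are no independent test of it. The log2 difference was 2.57 ± 0.24 (SE) for Hsd3b1 (limma adjusted p = 1.35e-08), 1.49 ± 0.20 for Fdx1 (1.52e-05), 1.10 ± 0.19 for Cyp19a1 (0.00158) and 1.06 ± 0.20 for Cyp17a1 (0.00734). Hsd3b1 and Fdx1 passed in each fit that left out 1 library. Cyp19a1 and Cyp17a1 did not pass without ChIP replicate 2 or without either input. The windows with the strongest sites of Hsd17b1 and Fdxr had log2 differences of 0.84 ± 0.20 and 0.74 ± 0.21 and did not pass (limma adjusted p = 0.147 and 0.417). With the GC trend of each library removed, both passed, at an adjusted p of 0.00144 and 0.00841, and without ChIP replicate 1 the Hsd17b1 window passed (1.00, adjusted p = 0.0273). Without a filter on low signal only the Hsd3b1 window passed (limma adjusted p = 0.033). The limma test called 0 windows of the loci lower in ChIP, with 0.00267% lower in the genome. At an unadjusted p under 0.05, 18 windows of the loci were higher (1.43%, against 1.9% of all windows) and 116 were lower (9.18%, against 3.33%).

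Outside the sites the ChIP signal of these loci lay below the input in all 10 loci. With 1000 bp around each site removed, the ratio of mean ChIP to mean input was between 0.791 and 0.972. Removal of sites lowers this ratio by construction in the loci that have them. No share over all protein-coding loci is given for this measure. With the sites kept in, the median ratio of the 10 loci was 0.889 and 9 were below 1, while all protein-coding loci had a median of 0.924 and 75.1% were below 1.

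At the gene starts, limma was fitted to the mean signal from 1 kb upstream to 100 bp downstream of 21064 protein-coding genes. The site rule did not choose these windows. That of Hsd17b1 nevertheless contains its promoter site, so its values here are not independent of the rule. None of the 10 promoters passed in either direction, where 0.076% of all promoters were higher and 0.0237% lower, and an unadjusted p under 0.05 was reached by 1 that was higher (1.37% of all promoters) and 3 that were lower (11% of all promoters). The median log2 difference was -0.13 over all promoters and -0.19 over the 10. Hsd17b1 was highest, with 1.43, 1.76 and 2.00 in the ChIP libraries and 0.701 and 0.605 in the inputs. Its log2 difference was 0.95 ± 0.30 (SE; limma adjusted p = 0.171), all 3 ChIP libraries lying above both inputs. It passed after removal of the GC trend (adjusted p = 0.0104), after quantile normalization (0.000369) and without ChIP replicate 1 (0.0228) or 3 (0.001). It did not pass without Input replicate 1 or 2 (adjusted p = 1.00 and 0.823) or without ChIP replicate 2 (0.481). The lowest estimates were those of Srd5a1 (-0.46 ± 0.23), Fdxr (-0.40 ± 0.20) and Por (-0.33 ± 0.15), with limma adjusted p of 0.398, 0.40 and 0.349. Relative to the median of all promoters these estimates were -0.33, -0.27 and -0.19, and that of Hsd17b1 was 1.08. In the Por and Fdxr promoters all ChIP libraries were below both inputs, whereas in Srd5a1 they overlapped. Without ChIP replicate 3, Por and Srd5a1 passed as lower (limma adjusted p = 0.0337 and 0.00372). That fit called 2854 of all 21064 promoters lower, against 5 in the main fit, so the 2 calls are not particular to these genes. Several genes have more than 1 annotated start, so every start was also read. The Hsd17b1 start window had a fold of 2.65, and the 34 start windows of the other 9 genes lay between 0.519 and 1.34.

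**Figure D4:**
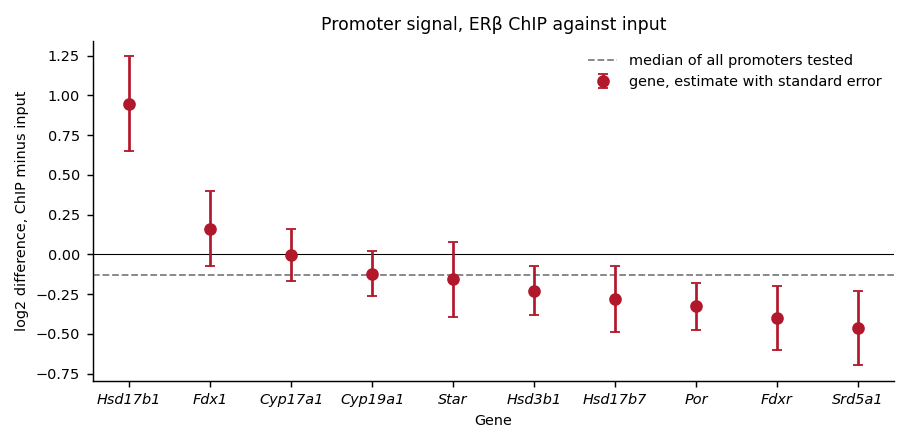
Log2 difference between ERβ ChIP and input in the promoter window of each gene (vertical axis, log2(signal + 0.5) scale), with the standard error from limma. The dashed line is the median of all promoters (-0.13), and Hsd17b1, whose window contains a called site, is the only gene clearly above it, at 0.95.

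Of the 12 sites, 8 were in introns, 2 in annotated promoters (Hsd17b1 and the pseudogene Gm6981), 1 in an exon outside coding sequence and 1 intergenic. Only 2 lay within the body of the steroidogenic gene itself, those of Cyp19a1 and Fdxr. The steroidogenic gene had the nearest protein-coding start for 4 of the 12 sites, the strongest sites of Fdx1, Cyp19a1, Hsd17b1 and Fdxr. That is 4 of the 10 genes, against 14.9% of all protein-coding genes that have the nearest start of any site. For the other 8 sites the nearest protein-coding starts were those of Hao2, Gldn, Naglu, Wbp1l, Grin2c and Ccdc190, and a place within 50 kb does not assign a site to a gene.

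An ERE with at most 2 mismatches was present in 8 of the 12 sites (66.7%, exact 95% interval 34.9% to 90.1%), in 67.9% of all sites and in 6.68% of all 200-bp tiles of the genome. None of the 12 had an ERE with at most 1 mismatch, which 33.0% of all sites and 0.529% of tiles had. At 12 sites a count of 0 leaves an interval of up to 26.5%. The elements are shown with 10 bases on each side and the bases of the element in capitals, since the mismatched bases differ between the genes.

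Cyp17a1, chr19:46646350-46646382: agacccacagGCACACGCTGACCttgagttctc
Fdx1, chr9:52003719-52003751: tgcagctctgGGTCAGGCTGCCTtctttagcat
Hsd3b1, chr3:98888435-98888467: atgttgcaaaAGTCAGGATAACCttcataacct
Hsd17b1, chr11:101063544-101063576: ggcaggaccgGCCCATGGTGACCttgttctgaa
Hsd17b7, chr1:169940643-169940675: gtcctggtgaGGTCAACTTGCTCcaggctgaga
Cyp19a1, chr9:54305351-54305383: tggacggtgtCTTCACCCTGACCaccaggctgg
Fdxr, chr11:115228775-115228807: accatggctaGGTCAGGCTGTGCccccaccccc
Fdxr, chr11:115239082-115239114: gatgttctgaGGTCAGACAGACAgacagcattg

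The ERE was found in all 5 sites that passed in only 2 libraries and in 3 of the 7 that passed in all 3, while the shares in the genome were 63.2% and 70.4%. The strongest Hsd3b1, Hsd17b1 and Fdxr sites had 3 mismatches in their best match and that of Cyp19a1 had 4. Among the 108 strongest sites of the genome, down to that of Hsd3b1, 84.3% had an ERE with at most 2 mismatches and 17 sites had none. The half-site GGTCA, counted also where it is part of an ERE or of an NR5A motif, was present in 11 of the 12 sites, in 84.8% of all sites and in 26.5% of tiles.

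**Figure D5:**
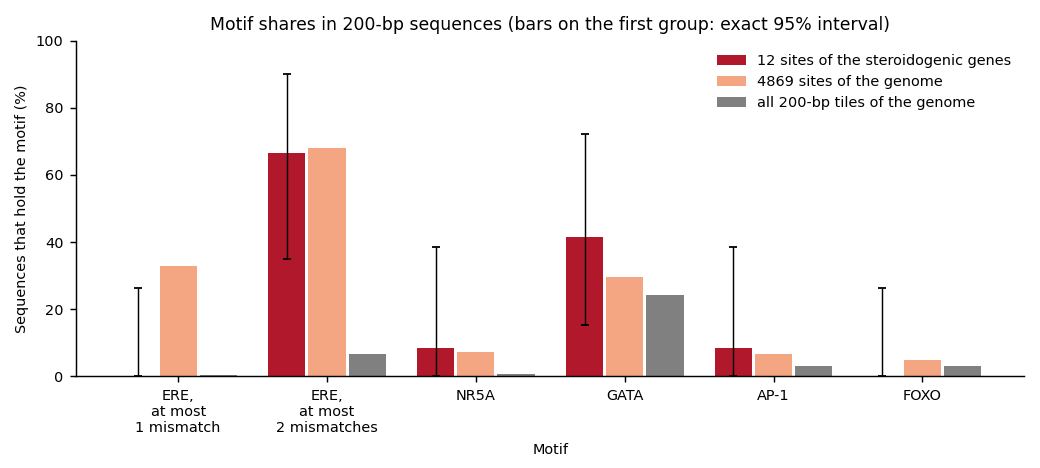
Share of 200-bp sequences that hold each motif (vertical axis, %), for the 12 sites of the steroidogenic genes, the 4869 sites of the genome and all 200-bp tiles of the genome, with the exact 95% interval for the 12 sites. The ERE with at most 2 mismatches is at 66.7%, 67.9% and 6.68%, and the intervals of the 12 sites span most of the axis for several motifs. Motifs other than the ERE were counted without mismatch, so their bars are not comparable with those of the ERE.

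The NR5A motif, bound by SF-1 and LRH-1, was found at 1 of the 12 sites (8.33%), that of Cyp17a1, where it overlaps the ERE by sharing its half-site. All sites had it at 7.15% and tiles at 0.693%. Motifs other than the ERE were counted without mismatch, which is stricter than the ERE count. By a different motif search, the paper found the NR5A motif about as abundant as the ERE in its ERβ-bound sequences. The shares given here are not comparable with that result. GATA motifs were present at 5 sites (41.7%; 29.7% of all sites, 24.1% of tiles), those of Cyp19a1, Fdx1, Hsd3b1 and Fdxr (2 sites). An AP-1 motif was present at the strongest Fdxr site only (6.63% of all sites, 3.11% of tiles), and the FOXO motif TGTTTAC at 0 of 12 (4.76% and 2.98%). The RefSeq promoters of GRCm38.p6 (250 bases before to 50 after each start) matched 7 of the 10 genes with 9 starts. Star, Hsd17b1 and Cyp17a1 were not matched, so the promoter of Hsd17b1, which holds a site, is not in these counts. Among the 9 matched promoters 1, that of Fdx1, held an ERE with at most 2 mismatches, as did 11.1% of all RefSeq promoters. An NR5A motif was held by 0 (0.956% of all) and a GATA motif by 3 (18.6% of all).

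Of 36 other genes of steroid synthesis, transport and breakdown, 34 were matched, and 11 of them had a site (32.4%, against 27.5% of all protein-coding genes). In its promoter 1 had a site (Hsd17b11), as did 0.814% of all protein-coding genes. By limma, 0 of their 34 promoters passed in either direction, where 0.076% of all promoters were higher and 0.0237% lower. Their median log2 difference was -0.07. Among those with the strongest sites were Akr1c14 (14.0 ± 3.05-fold), Hsd17b11 (13.3 ± 3.07), Hsd11b2 (12.9 ± 0.964), Cyp1b1 (11.4 ± 3.02), Cyb5a (8.90 ± 0.410), H6pd (8.21 ± 1.15) and Akr1c18 (6.33 ± 2.16). The strongest Hsd3b1 site exceeded all of these. For Akr1c14, Hsd17b11 and Cyp1b1 the strongest site had the gene's own start as the nearest protein-coding start. For Hsd11b2, Cyb5a, H6pd and Akr1c18 the nearest was that of Tppp3, Fbxo15, Spsb1 and Akr1c13. Cyp11a1 had 2 sites, the strongest at 6.08 ± 1.17-fold, close to that of Cyp17a1, with Sema7a as the nearest protein-coding gene. The loci of the estrogen receptor targets Greb1 and Nrip1 had 6 and 5 sites with a maximum of 33.0 ± 5.30 and 27.9 ± 3.20. The Hsd3b1 site differed from that of Nrip1 by less than the spread between ChIP libraries, which leaves out the variation between inputs.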

How the data were processed

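ChIP-seq reads were aligned by the authors to GRCm38 (mm10) with STAR, spliced alignment switched off, and worked up with HOMER from uniquely mapped reads; chromatin was sheared by sonication, and tool versions, the length to which reads were extended and the treatment of duplicates are not given in the sources used here. Each deposited file held the signal (coverage) of 1 library in segments of variable length, scaled by the authors to a common total of 928 to 948 M (signal times length). The study states aligned reads for the ChIP libraries, but counts cannot be read from these scaled values, so replicates alone set the precision. Segments were finer in Input replicate 1 (median 269 bp) than in Input replicate 2 (519 bp) and the ChIP libraries (481 to 486 bp).

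Groups were taken from the sample titles. Windows of 200 bp at steps of 10 bp were compared as ChIP over the mean of 2 inputs (floor 0.368), and windows over 4-fold in at least 2 files with centres within 200 bp were joined to 1 site, given as its highest window. Gene models were GENCODE vM21. limma 3.58.1 in R 4.3.3 (lmFit, eBayes with trend, two-sided) was run on log2(signal + 0.5) over all 1-kb windows or promoters with a mean signal of at least 0.1. Fold changes on that scale understate changes at low signal. Replicates were pools of mice. The p-values rest on the spread between these 5 libraries together with a variance that limma shares across all windows or promoters. They therefore do not measure the spread at a single window or promoter alone. An exact permutation of 3 against 2 libraries cannot reach a one-sided p below 0.1, so none was used. The functions were tested on simulated data. All 10 genes were named with their strongest window, sites were described when over 8-fold, in a promoter or strongest of their gene, and weaker sites were given beside them; of the other steroid genes the 8 strongest were to be named, of which 1 is not reported here, with Cyp11a1 added after its value was seen. The genes, lists and rules were chosen with earlier results of these data known. Python 3.11.15 was used for windows and motifs. Alternatives covered thresholds, inputs, windows, flanks, normalization, the replicate block and libraries left out.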

Additional observations from a re-analysis of the deposited data

How the results depend on the processing

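Of the site counts, 7 genes with 12 sites became 19 sites at a 3-fold threshold, 3 genes with 3 sites at 8-fold (Hsd3b1, Fdx1 and Cyp19a1), 7 sites when all 3 ChIP files had to pass, 6 sites with 400-bp windows, and 4 genes with 4 sites with 10 kb flanks. Leaving out 1 library gave 6 to 8 genes and 7 to 12 sites, the fewest sites without ChIP replicate 2. The held-out fold of 7.64 was 4.96 at 3-fold and 11.4 at 8-fold, and 6.64 to 8.81 with 1 input left out; it has no value without a ChIP library. The ERE share was 33.3% at 8-fold, 25% with 10 kb flanks, 0% with at most 1 mismatch and 0% with 0 mismatches, and 42.9% to 63.6% with 1 library left out. The 4 higher windows became 1 without a filter on low signal, 8 with the GC trend removed and 2 to 6 with 1 library left out. The 0 lower windows became 2 under quantile normalization and 1 with the track-name form as a term, and stayed at 0 with 1 library left out. One promoter, Hsd17b1, was called higher under quantile normalization (1) and GC removal (1), and 0 to 1 were higher and 0 to 2 lower with 1 ChIP library left out. The 2 lower came from the fit without ChIP replicate 3, which called 2854 of 21064 promoters lower. The promoter estimates of Star (0.022 under quantile normalization) and Cyp17a1 (0.16 under quantile normalization, 0.02 without ChIP replicate 1, 0.046 without ChIP replicate 3 and 0.02 without Input replicate 1) turned positive and did not pass in any fit. Over the fits with 1 library left out the Cyp17a1 estimate ran from -0.072 to 0.046. For the values of single genes, 182 alternatives kept direction and call, 14 moved the strongest fold of a gene by over its SD and 8 brought a promoter past the threshold. A lone input was assumed to vary like the ChIP libraries. The causes of these shifts were not tested, except that stricter rules pass fewer windows by construction.

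ChIP and input replicates 1 and 2 share numbers. Deviations of same-numbered libraries correlated at 0.036 and -0.011, so the numbers were not taken to pair samples. With the replicate block, which leaves ChIP replicate 3 without a partner, 5 windows of the loci were higher and 9 lower. Over the genome that fit called 3427 of 2430659 windows higher and 3207 lower. One promoter was higher (Hsd17b1, 0.86) and 1 lower (Srd5a1, -0.69), where 94 of 21064 promoters were higher and 1087 lower. The Cyp17a1 promoter estimate was 0.046.

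Quantile normalization moved the median promoter difference from -0.13 to -0.00047, so promoter estimates are best read relative to that median. The scaled values give no counts, so a gene without a site, such as Por, had none detectable at this resolution. The knockout ChIP was not analysed here, so signal that does not depend on ERβ was not separated.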
